A study of Mus musculus with 10 samples.

Results

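DNA replication and G1/S genes were followed in sorted mouse cells of T-ALL, an acute leukemia of immature T cells. The list held 45 genes, taken by name and ordered by the step of replication they serve: control of S phase entry, origin licensing, the MCM2-7 helicase, origin firing, priming, the sliding clamp and its loader, single-strand binding, Okazaki fragment maturation, nucleotide supply, uracil removal, and chromatin and histone supply. Each gene was read from 1 probe set, the brightest over the arrays among those annotated to that symbol alone. Of the 45 genes, 44 had such a probe set, and all 44 were bright enough to be tested. They belonged to 18193 genes with a probe set of their own, 12735 of which were tested. Chaf1a, a subunit of the histone chaperone CAF-1, was not analysed here.

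The leukemias were driven by ICN1, the activated intracellular part of NOTCH1. Every array, control arrays included, came from cells with the ROSCreERT2 transgene, a Cre recombinase that tamoxifen switches on, and with 2 floxed copies of CnB1. CnB1, now named Ppp3r1, encodes the regulatory subunit of the calcium-dependent phosphatase calcineurin. Leukemic secondary recipient mice received tamoxifen, which deletes CnB1 (TAM, 5 arrays), or the corn oil carrier alone (OIL, 5 arrays). The OIL mice saw neither tamoxifen nor active Cre, so effects of the drug, of Cre and of the loss of CnB1 cannot be told apart here. The labels give no age or sex of the mice, no time after treatment, and no statement that every array stands for its own mouse, so the p-values measure the spread between these samples. Each group had 1 array for each of 5 labels: F3, 204, 206, F3.1 and F3.2. The deposited labels do not say what these stand for, and F3.1 and F3.2 are shortened here by dropping a last number that differed between TAM and OIL. The label pairs are thus least certain for F3.1 and F3.2.

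The deposited values were log2 RMA expression values, on which a difference of 1 is a doubling. The array medians lay between 5.07 and 5.13. One probe set of Ppp3r1 lay between 4.49 and 6.04 in OIL and between 3.02 and 3.59 in TAM, with no overlap, while a brighter one lay between 9.71 and 9.91 in OIL and between 9.63 and 9.72 in TAM. Markers of the T lineage were present on every array: 12 of the 14 listed had a probe set, and all 12 were above the brightness limit. Their summed level was 15.0 to 15.2 log2 in both groups, a sum led by the brightest of them. Singly, 8 of the 12 were higher in TAM. Cd2 fell from a mean of 10.94 in OIL to 9.95 in TAM, with no overlap (limma adjusted p 0.0588). With the replicate label as a block it was the only 1 of the 12 called (adjusted p 0.0271), against 3.38% of all genes. Of the 44 replication genes, 18 had their lowest value on the OIL F3 array and 8 on the TAM F3.2 array. The median deviation of the 44 genes from their mean over the arrays was -0.19 on OIL F3 and -0.10 on TAM F3.2, and between -0.10 and 0.10 on the other arrays.

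Cells that commit to S phase do so when cyclin E and its kinase release the E2F transcription factors from the retinoblastoma protein, and E2F then switches on much of the replication machinery. Origins are licensed in G1, when ORC, Cdc6 and Cdt1 load the MCM2-7 rings on DNA. Cdc7 with Dbf4 and the cyclin-dependent kinases then convert these rings to active helicases with Cdc45 and GINS. T-ALL blasts proliferate fast, and activated NOTCH1 is known to drive growth and cell cycle entry in the T lineage.

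The promoters of these genes were read because E2F is their best known common regulator. Of the 45 listed genes, 39 matched the RefSeq promoter table (GRCm38.p6, 250 bases before to 50 bases after the gene start), 6 of them with more than 1 promoter, which gave 46 promoters. The words TTTCCCGC, TTTCGCGC, TTTGCCGC and TTTGGCGC, which are forms of the E2F site, were searched on both strands, and overlapping words were each counted. At least 1 of the 4 words occurred in 13 of the 46 promoters (28.3%), against 2.26% of all 32851 promoters and 3.80% of the 13077 promoters of tested genes. The pentamer CCAAT, the letters bound by NF-Y, occurred on either strand in 26 of the 46 promoters (56.5%), against 37.4% of all promoters. A match is a run of letters and not a shown binding site.

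The promoters of 3 genes with E2F words and those of the pair of nucleotide supply genes with the clearest values are shown, in gene orientation, with E2F words and CCAAT in capitals. Mcm5 (chr8:75109259-75109558, plus strand) and Mcm6 (chr1:128359656-128359955, minus strand) encode helicase subunits, and Rfc3 (chr5:151651159-151651458, minus strand) encodes a clamp loader subunit. In Mcm5 and in the first capital run of Mcm6 that holds E2F words, a word on one strand overlaps a word on the other strand. Tyms (chr5:30073576-30073875, minus strand) held none of the words and no CCAAT, and Rrm2 (chr12:24708004-24708303, plus strand) held CCAAT alone.
Mcm5: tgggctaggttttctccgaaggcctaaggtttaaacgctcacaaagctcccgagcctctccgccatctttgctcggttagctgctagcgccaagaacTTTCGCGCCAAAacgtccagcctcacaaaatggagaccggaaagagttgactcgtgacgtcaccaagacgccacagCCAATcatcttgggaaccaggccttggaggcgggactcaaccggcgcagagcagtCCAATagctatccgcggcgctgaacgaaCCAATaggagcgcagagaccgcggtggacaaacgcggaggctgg
Mcm6: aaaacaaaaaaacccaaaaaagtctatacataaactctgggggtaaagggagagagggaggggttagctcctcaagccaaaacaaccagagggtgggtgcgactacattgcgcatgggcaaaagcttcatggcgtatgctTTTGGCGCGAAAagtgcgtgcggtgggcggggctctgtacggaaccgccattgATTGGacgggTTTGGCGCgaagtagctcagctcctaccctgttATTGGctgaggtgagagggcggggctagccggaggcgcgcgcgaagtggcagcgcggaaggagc
Rfc3: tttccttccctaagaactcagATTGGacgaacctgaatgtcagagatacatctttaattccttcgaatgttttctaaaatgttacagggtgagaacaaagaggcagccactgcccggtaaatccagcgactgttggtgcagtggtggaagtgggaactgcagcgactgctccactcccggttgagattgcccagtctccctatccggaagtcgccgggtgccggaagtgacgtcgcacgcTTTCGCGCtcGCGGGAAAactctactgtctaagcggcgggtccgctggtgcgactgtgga
Tyms: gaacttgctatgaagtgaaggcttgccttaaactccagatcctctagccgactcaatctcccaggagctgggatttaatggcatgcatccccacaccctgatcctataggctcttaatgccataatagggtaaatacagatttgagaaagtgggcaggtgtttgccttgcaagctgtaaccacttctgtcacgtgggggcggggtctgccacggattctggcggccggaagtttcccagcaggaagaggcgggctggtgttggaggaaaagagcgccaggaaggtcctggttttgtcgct
Rrm2: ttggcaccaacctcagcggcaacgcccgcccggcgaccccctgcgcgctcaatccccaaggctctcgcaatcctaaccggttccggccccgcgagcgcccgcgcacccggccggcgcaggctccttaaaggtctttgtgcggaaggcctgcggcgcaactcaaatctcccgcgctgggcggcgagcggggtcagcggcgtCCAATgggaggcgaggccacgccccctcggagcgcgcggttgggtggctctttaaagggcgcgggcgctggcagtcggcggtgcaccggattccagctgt

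The words began 153 and 149 bases before the gene start in Mcm5, and 110, 106 and 47 bases before it in Mcm6. The 13 genes with an E2F word were E2f2, Orc1, Cdc6, Cdt1, Mcm3, Mcm5, Mcm6, Mcm7, Gins3, Pola1, Rfc3, Lig1 and Uhrf1. Their median TAM minus OIL difference was 0.07 log2, the same to this precision as that of the 25 tested genes whose promoters held none of the words (0.07 log2). The absence of these letters in Tyms and Rrm2 says only that they are not in these windows.

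TAM was set against OIL to ask which transcripts depend on calcineurin. Among the replication and G1/S genes the differences were small and leaned upwards: 32 of the 44 were higher in TAM, against 41.0% of all tested genes, with a median TAM minus OIL difference of 0.07 log2 against -0.03 over all genes. The median size of the difference was 0.08 log2 against 0.10 over all genes. Without a block, none of the 44 passed an adjusted p of 0.05 (limma, Benjamini-Hochberg over 12735 genes), where the share of all genes was 0.471%. At an unadjusted p under 0.05 the same limma fit took 7 of the 44 (15.9%), against 13.0% of all genes. Higher in TAM were 6 of these (13.6% of the 44), Ccne2, Cdc45, Cdc6, Rrm2, Slbp and Tyms, against 5.26% of all genes in that direction. Lower was Rfc1 (2.27% of the 44), against 7.75%.

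With the replicate label as a block, limma called 1 of the 44 genes, Tyms (2.27%), against 3.38% of all genes. At an unadjusted p under 0.05 this blocked fit took 10 of the 44 (22.7%), the 7 above with Mcm10, Rfc3 and Rpa2, against 22.4% of all genes. Over both directions together, the shares at an unadjusted p under 0.05 were near those of the whole table in both fits. The 95% interval of the difference without the block lay within 0.5 log2 of 0 for 37 of the 44 genes, against 74.5% of all genes; the exceptions were Ccne2, Cdc45, Cdc6, Prim2, Rfc3, Rpa2 and Tyms. A difference over 0.5 log2 was seen for Tyms alone among the 44, against 4.55% of all genes.

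The share of genes higher in TAM depended on the background and on single arrays. Among the 5148 genes whose probe set averaged over 8 log2, a background chosen after seeing the data, 48.2% were higher in TAM, and 28 of the 40 replication genes over that limit were. Their median difference was 0.06 log2, against -0.01 for all such genes. Without the OIL F3 array, 25 of the 44 were higher, against 39.8% of all genes, and the count lay between 28 and 37 without any other single array. Each gene of the list, with its interval, is drawn by replication step in the plot of differences.

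**Figure D1:**
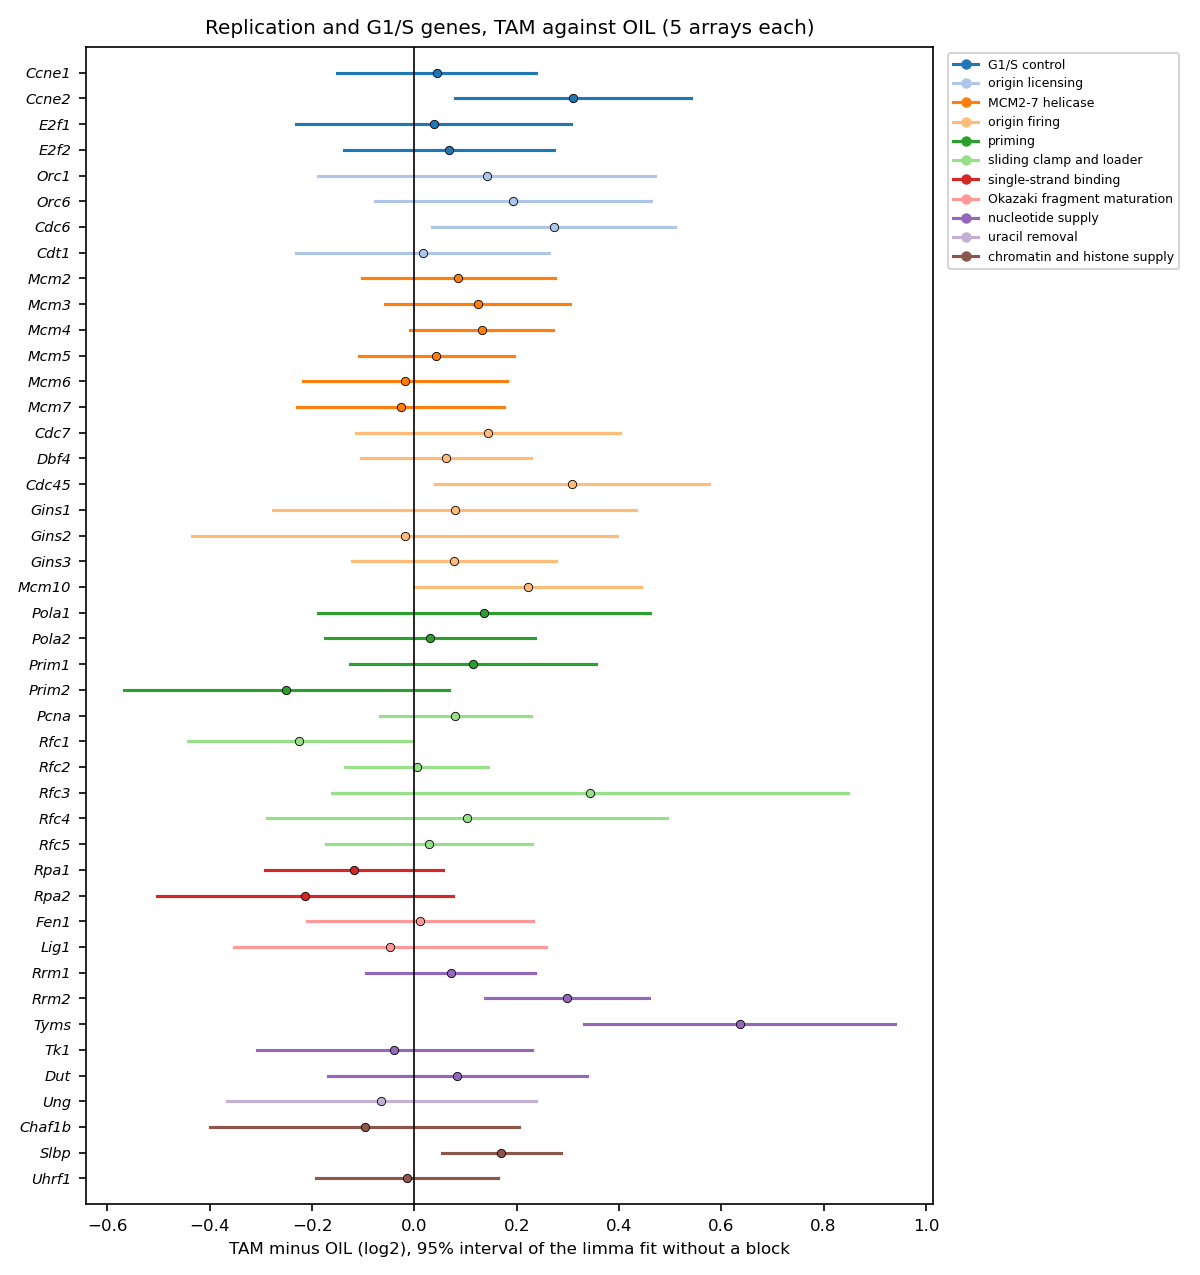
TAM minus OIL difference in log2 expression (horizontal axis) of the 44 tested replication and G1/S genes, coloured by replication step. Points are differences of the means of 5 arrays each and bars are 95% intervals of the limma fit without a block; Tyms, at 0.64, stands farthest to the right, and 32 points lie above 0.

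**Figure D2:**
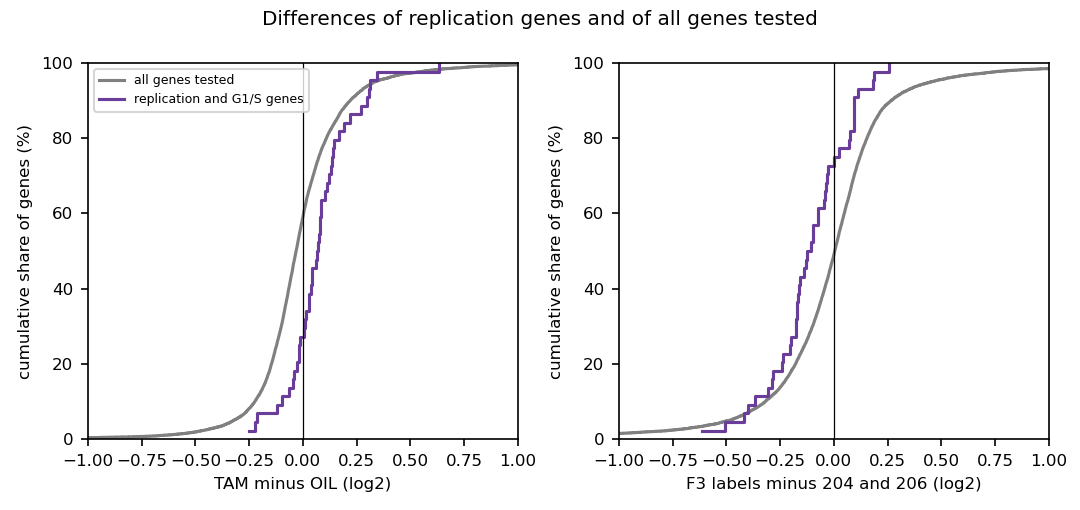
Cumulative share of genes in percent (vertical axes) by log2 difference (horizontal axes, cut at -1 and 1) for the 44 replication and G1/S genes and all 12735 tested genes, with TAM minus OIL on the left and F3 labels minus 204 and 206 on the right. The list's curve lies to the right of that of all genes on the left panel, with medians of 0.07 and -0.03, and mostly to its left on the right panel, with medians of -0.12 and 0.0043.

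Nucleotide supply held the largest difference of the list, in Tyms, the dimmest of the 44 genes. Its mean over the arrays was 6.46 log2, against a list median of 9.96. Tyms encodes thymidylate synthase, which makes dTMP for DNA synthesis. Its log2 values were 6.30, 6.20, 5.88, 5.91 and 6.43 in OIL 204, 206, F3.1, F3.2 and F3, and 6.75, 6.66, 6.49, 7.03 and 6.98 in TAM in the same order. All values by array below keep this order. Every TAM array was above every OIL array. Groups that did not overlap, with TAM higher, were found for 3 of the 44 genes, Tyms, Rrm2 and Slbp, against 1.27% of all genes. No gene of the list had groups that did not overlap with TAM lower, against 1.99% of all genes.

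The mean of Tyms was 6.15 ± 0.24 in OIL and 6.78 ± 0.22 in TAM (SD over 5 arrays each), with a difference of 0.64 log2 (SE 0.14, 95% interval 0.33 to 0.94) or 1.55-fold. The limma adjusted p was 0.0855 without the block and 0.026 with it, and TAM was higher in 5 of 5 label pairs, by 0.45 in 204, 0.46 in 206, 0.61 in F3.1, 1.12 in F3.2 and 0.55 in F3. The call with the block was lost without label 204 (adjusted p 0.0656), 206 (0.0582), F3.1 (0.101) or F3 (0.0774), and remained without F3.2 (difference 0.52, adjusted p 0.0142). In the 4 fits that lost it, Tyms differed by 0.68, 0.68, 0.64 and 0.66. Calls over all genes fell too, from 431 with every label to 146, 184, 87 and 153, against 436 without F3.2. A dimmer probe set of Tyms went from 5.21 in OIL to 5.47 in TAM, also higher in 5 of 5 pairs. The 2 others were below the brightness limit and differed by 0.08 and -0.19. With the mean of all its probe sets, Tyms differed by 0.19 and was not called with the block (adjusted p 0.0933).

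Rrm2, the S phase subunit of ribonucleotide reductase, which makes deoxynucleotides, read 11.88, 11.80, 11.62, 11.59 and 11.83 in the 5 OIL arrays, in the label order given for Tyms, and 12.04, 12.04, 12.00, 12.11 and 12.03 in TAM. The TAM arrays lay close together and above all OIL arrays. The means were 11.74 ± 0.13 and 12.04 ± 0.04 (SD, n = 5), a difference of 0.30 (SE 0.07, 95% interval 0.14 to 0.46) or 1.23-fold, with a limma adjusted p of 0.111 and 0.0697 with the block. All 3 probe sets of Rrm2 gave differences between 0.30 and 0.35. Rrm2 was called when the label was a random block (adjusted p 0.0201) or when arrays were weighted (adjusted p 0.0344). Rrm1, the other subunit of the enzyme, differed by 0.07 and Tk1, thymidine kinase of the salvage route, by -0.04.

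Dut, the dUTPase that keeps uracil out of DNA, differed by 0.08 and was higher in TAM in 5 of 5 pairs, by 0.04 to 0.14. Its other probe set was lower in TAM in 5 of 5 pairs, with a mean difference of -0.17, so the direction for Dut rested on the probe set. Ung, the glycosylase that removes uracil from DNA, differed by -0.06. Over the 44 genes, TAM was higher in 5 of 5 pairs for 8 genes, Cdc45, Cdc6, Dut, Mcm10, Pcna, Rrm2, Slbp and Tyms, against 8.40% of all genes. It was lower in 5 of 5 pairs for 3, Rfc1, Rpa1 and Rpa2, against 13.5%.

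The values of the genes with the clearest differences and of those that differed between labels are plotted by array.

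**Figure D3:**
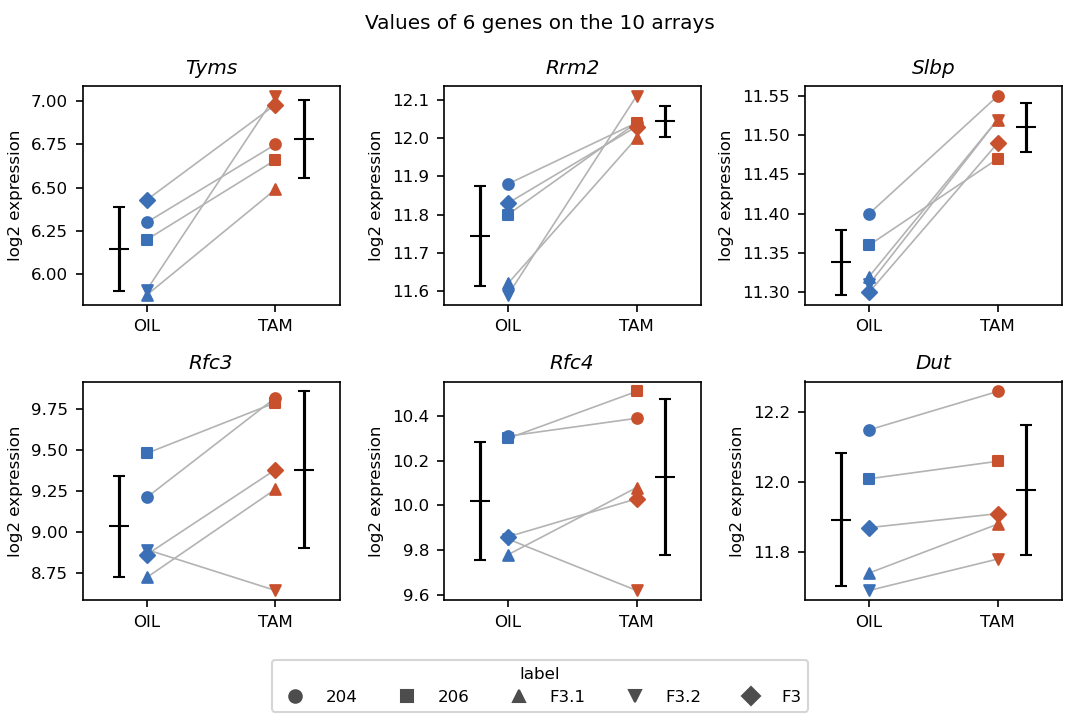
Log2 expression (vertical axes, not starting at 0) of 6 genes on the OIL and TAM arrays; marker shapes are labels, lines join arrays of a label, and the black bars beside the points are the mean and SD of 5 arrays. For Tyms, Rrm2 and Slbp every TAM array lies above every OIL array, while for Rfc4 and Dut the arrays of 204 and 206 lie above those of the F3 labels.

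In G1/S control all 4 genes were higher in TAM, by 0.04 to 0.31, and none was called. Ccne2, cyclin E2, which activates Cdk2 at the G1/S boundary, read 8.47, 8.73, 8.34, 8.24 and 8.45 in OIL and 8.95, 8.67, 8.88, 8.63 and 8.66 in TAM. The groups overlapped, since the OIL 206 array was above 3 of the TAM arrays. The difference was 0.31 (95% interval 0.08 to 0.54, 4 of 5 pairs higher), with a limma adjusted p of 0.241. Its paralog Ccne1 differed by 0.04, as did E2f1, and E2f2 by 0.07; the E2F factors are both regulators and targets of this step.

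In origin licensing all 4 genes were higher in TAM, with a median difference of 0.17. Cdc6, which loads MCM2-7 together with ORC, read 9.64, 9.75, 9.31, 9.52 and 9.40 in OIL and 10.00, 9.83, 9.87, 9.55 and 9.73 in TAM. TAM was higher in every pair, by 0.03 to 0.56, but the groups overlapped. The difference was 0.27 (95% interval 0.03 to 0.51), with a limma adjusted p of 0.316. The origin recognition subunits Orc1 and Orc6 differed by 0.14 and 0.19. Cdt1, the licensing factor destroyed in S phase, differed by 0.02, and its OIL F3 value of 11.31 lay apart from the other OIL arrays, the next of which read 11.76.

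The helicase itself differed little. The 6 subunits Mcm2, Mcm3, Mcm4, Mcm5, Mcm6 and Mcm7 differed by 0.09, 0.12, 0.13, 0.04, -0.02 and -0.03, and all 6 intervals lay within 0.5 log2 of 0. In the F3.2 pair all 6 were lower in TAM, by 0.02 to 0.19, while in the F3 pair all 6 were higher, by 0.02 to 0.22. The lowest limma adjusted p of the 6 was 0.42, for Mcm4.

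Among the 7 origin firing genes 6 were higher in TAM. Cdc45, which joins MCM2-7 and GINS in the active helicase, read 8.29, 7.84, 7.80, 8.01 and 7.79 in OIL and 8.39, 8.18, 8.51, 8.07 and 8.12 in TAM. It was higher in TAM in every pair, but the OIL 204 array was above 3 TAM arrays. The difference was 0.31 (95% interval 0.04 to 0.58), with a limma adjusted p of 0.315, and the second probe set gave 0.24. Mcm10, needed to activate the helicase, differed by 0.22 (limma adjusted p 0.384).

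The GINS subunits Gins1, Gins2 and Gins3 differed by 0.08, -0.02 and 0.08. The kinase Cdc7 differed by 0.14 and its activator Dbf4 by 0.06. For Cdc7 the label pairs differed by -0.10 in 204, -0.20 in 206, 0.25 in F3.1, 0.64 in F3.2 and 0.14 in F3, so that TAM was lower in both 204 and 206 and higher in the F3 labels. The test of that contrast gave 0.49 with an unadjusted p of 0.0257 and an adjusted p of 0.998 in limma. Cdc7 was 1 of the 44 genes under an unadjusted 0.05 in this interaction, against 2.72% of all genes, and no gene of the 44 passed the adjusted limit, as 0% of all genes did. The dimmer probe set of Cdc7 did not show this label pattern. From OIL to TAM it read 5.96 and 6.05 in 204, 6.03 and 6.03 in 206, and 5.78 and 5.73 in F3.2.

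Priming held genes on both sides of 0. Prim2, the large primase subunit, read 9.86, 9.82, 10.32, 10.33 and 9.96 in OIL and 9.69, 9.74, 10.11, 9.51 and 9.99 in TAM. The difference of -0.25 (95% interval -0.57 to 0.07, limma adjusted p 0.508) was uneven, with -0.82 in the F3.2 pair and between -0.21 and 0.03 in the others. The small primase subunit Prim1 and the catalytic polymerase alpha subunit Pola1 differed by 0.11 and 0.14, and the accessory subunit Pola2 by 0.03.

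Of the 6 clamp and loader genes 5 were higher in TAM. Pcna, the sliding clamp, was at 13.22 ± 0.07 in OIL and 13.30 ± 0.09 in TAM (SD over 5 arrays), 0.08 apart. Rfc3 read 9.21, 9.48, 8.72, 8.89 and 8.86 in OIL and 9.82, 9.79, 9.26, 8.64 and 9.38 in TAM. Its difference of 0.34 had the widest interval of the list, -0.16 to 0.85, and a limma adjusted p of 0.582, and TAM was lower in the F3.2 pair alone. With the block and without the F3.2 label, Rfc3 differed by 0.49 and was called (adjusted p 0.0224).

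Rfc1, the large loader subunit, read 10.24, 10.18, 10.19, 10.29 and 9.94 in OIL and 10.06, 10.15, 9.97, 9.82 and 9.72 in TAM. TAM was lower in every pair, by 0.04 to 0.47, and the groups overlapped. The difference was -0.22 (95% interval -0.44 to -0.01, limma adjusted p 0.37), but its other probe sets gave 0.01 and -0.04. Rfc2, Rfc4 and Rfc5 differed by 0.0046, 0.10 and 0.03.

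Of RPA, which coats single-stranded DNA at the fork, the list held 2 subunits, Rpa1 and Rpa2, both lower in TAM in every pair. Rpa1 differed by -0.12 and Rpa2 by -0.21, and neither was called. The second probe set agreed in sign for both, with -0.10 and -0.19. The remaining subunit, Rpa3, which is not on the list, went the other way: it was higher in TAM in 5 of 5 pairs, by 0.31 on average, with a limma adjusted p of 0.437 and 0.0637 with the block. In Okazaki fragment maturation the nuclease Fen1 differed by 0.01 and the ligase Lig1 by -0.05.

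Slbp binds the stem-loop of histone messenger RNA and lets histones be made in S phase. It is named for its groups, after its values were seen. It read 11.40, 11.36, 11.32, 11.31 and 11.30 in OIL and 11.55, 11.47, 11.52, 11.52 and 11.49 in TAM. The difference was small and even across pairs, 0.17 (95% interval 0.05 to 0.29) with pairs between 0.11 and 0.21. Its limma adjusted p was 0.211 without a block and 0.128 with the label as a fixed block, so neither fit called it. With the label as a random block it was 0.0401. A second probe set was higher in TAM in 5 of 5 pairs too, by 0.50 on average. Chaf1b, the other CAF-1 subunit listed, differed by -0.10, and Uhrf1, which keeps DNA methylation after replication, by -0.01.

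The second comparison asked how far the 5 labels differed, with TAM or OIL as a term in the fit. Of the 44 genes, 2 differed between labels, Dut and Rfc4 (4.55%; limma F-test, adjusted p 0.0489 and 0.0491), against 10.6% of all genes. The SD of the 5 label means ran from 0.03 to 0.36, with a median of 0.13 against 0.14 over all genes. The count of 2 rested on the labels kept: it was 0 without label 204, 206, F3.1 or F3 and 9 without F3.2. The share of all genes called moved with it, to 3.18%, 5.72%, 8.32% and 4.01% without the first 4 and 16.6% without F3.2.

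Set as F3, F3.1 and F3.2 (the F3 labels) against 204 and 206, 7 of the 44 genes were called (15.9%; limma, adjusted p under 0.05), against 18.3% of all genes. All 7 were lower in the F3 labels: Dut, Gins1, Gins2, Pola1, Prim1, Rfc3 and Rfc4, against 10.5% of all genes called in that direction. The error of this test came from the OIL and TAM arrays within a label. The spread between labels of the same family did not enter it. These calls, and all later calls, SEs and p-values between label families, thus cover these labels alone. Whether the families differ beyond the spread between their labels was not tested. In sign, 32 of the 44 genes were lower in the F3 labels, against 48.9% of all genes. Among genes with a mean over 8 log2 the share was 55.2%, and 29 of the 40 replication genes over that limit were lower. The median difference was -0.12 log2 for the list and 0.0043 over all genes. The count of 7 became 0 without label 204, 1 without 206, 6 without F3.1, 9 without F3.2 and 4 without F3, while the share of all genes called was 6.73%, 8.99%, 13.2%, 18.1% and 13.3%. All 5 nucleotide supply genes and all 6 clamp and loader genes were lower in the F3 labels, though Tyms and Rrm2 only at -0.03 and -0.08. Neither gene of Okazaki fragment maturation was lower in its chosen probe set. For Fen1 this rested on the probe set, with 0.09 in the chosen one and -0.27 in the other.

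Of the clamp loader, Rfc3 and Rfc4 showed the largest differences in the chosen probe sets. This ranking rested on the probe set, since Rfc1 differed by -0.17 in its chosen one and by -0.32 and -0.82 in its others. Rfc4 read 10.31, 10.30, 9.78, 9.85 and 9.86 in OIL and 10.39, 10.51, 10.08, 9.62 and 10.03 in TAM. All arrays of 204 and 206 were above all arrays of the F3 labels. The difference, F3 labels minus 204 and 206, was -0.51 (SE 0.09, limma adjusted p 0.00812), and the other probe set gave -0.37. For Rfc3, whose values are given above, the difference was -0.61 (SE 0.13, limma adjusted p 0.0189) and -0.59 in its other probe set. The groups overlapped for Rfc3, since TAM F3 and TAM F3.1 were above OIL 204.

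Dut read 12.15, 12.01, 11.74, 11.69 and 11.87 in OIL and 12.26, 12.06, 11.88, 11.78 and 11.91 in TAM. Here too every 204 and 206 array was above every array of the F3 labels. The difference was -0.31 (SE 0.06, limma adjusted p 0.0104), and the other probe set gave -0.57, with the same sign although its TAM minus OIL sign was opposite.

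In the primase and polymerase alpha complex, Pola1 read 10.51, 10.46, 10.19, 10.21 and 9.80 in OIL and 10.52, 10.59, 10.44, 10.16 and 10.13 in TAM. Prim1 read 11.15, 10.98, 10.65, 10.73 and 10.76 in OIL and 11.08, 11.13, 10.88, 10.78 and 10.97 in TAM. For both genes every 204 and 206 array was above every array of the F3 labels. Pola1 differed by -0.37 (SE 0.08, limma adjusted p 0.0175) and Prim1 by -0.29 (SE 0.07, limma adjusted p 0.0269). The lone other probe set of Pola1 was below the brightness limit, and with the mean of its probe sets Pola1 was not called (adjusted p 0.283).

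Of GINS, the 4-subunit partner of Cdc45, Gins1 read 10.02, 10.26, 9.80, 9.94 and 9.57 in OIL and 10.14, 10.42, 9.98, 9.65 and 9.81 in TAM. Gins2 read 9.16, 9.01, 8.81, 8.96 and 8.36 in OIL and 9.12, 9.07, 9.10, 8.49 and 8.43 in TAM. The OIL F3 array was the lowest in OIL for both genes, and Gins2 overlapped between the label families through TAM F3.1. Gins1 differed by -0.42 (SE 0.09, limma adjusted p 0.0188), and Gins2 by -0.40 (SE 0.11, limma adjusted p 0.0435). The dim second probe set of Gins1 gave -0.08, and with the mean of its probe sets Gins1 was not called (adjusted p 0.145), while the other probe set of Gins2 gave -0.73. With a further quantile normalization Gins2 was not called (adjusted p 0.0542).

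Lig1, the ligase that seals Okazaki fragments, had one of the larger spreads between labels without a split between label families. It read 10.52, 10.46, 10.84, 10.89 and 10.28 in OIL and 10.50, 10.59, 10.83, 10.56 and 10.27 in TAM. The F3 label was lowest and F3.1 highest in label mean, at 10.27 and 10.84. The F3 differences of the 6 helicase genes lay between -0.16 and 0.07 in the chosen probe sets, and none was called. Their other bright probe sets ranged more widely, from -0.62 in Mcm3 to 0.17 in Mcm5, with -0.34 in Mcm2 and -0.30 in 1 of Mcm7.

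**Figure D4:**
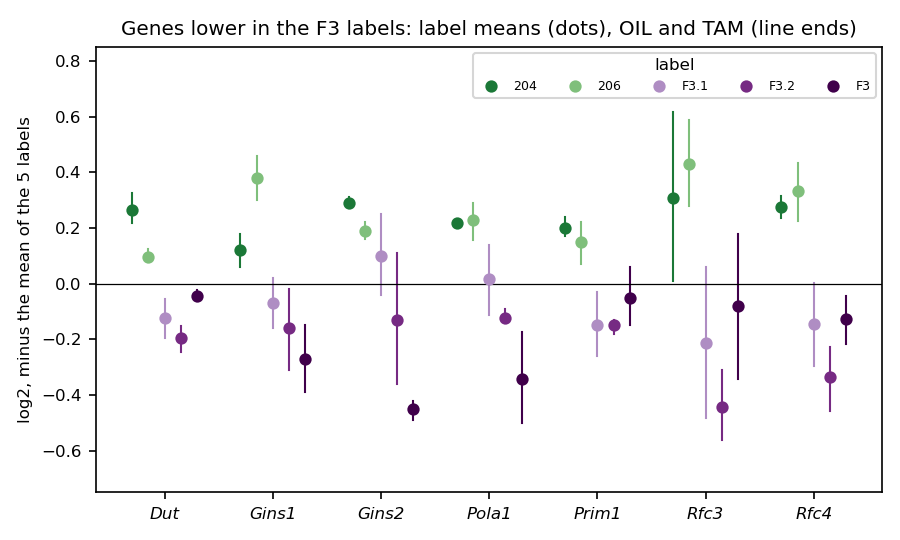
Label means (dots) of log2 expression minus the mean of the 5 labels (vertical axis) for the 7 genes called between label families, with the OIL and TAM arrays of each label at the line ends. For each of the 7 genes the dots of F3, F3.1 and F3.2 lie below those of 204 and 206.

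**Figure D5:**
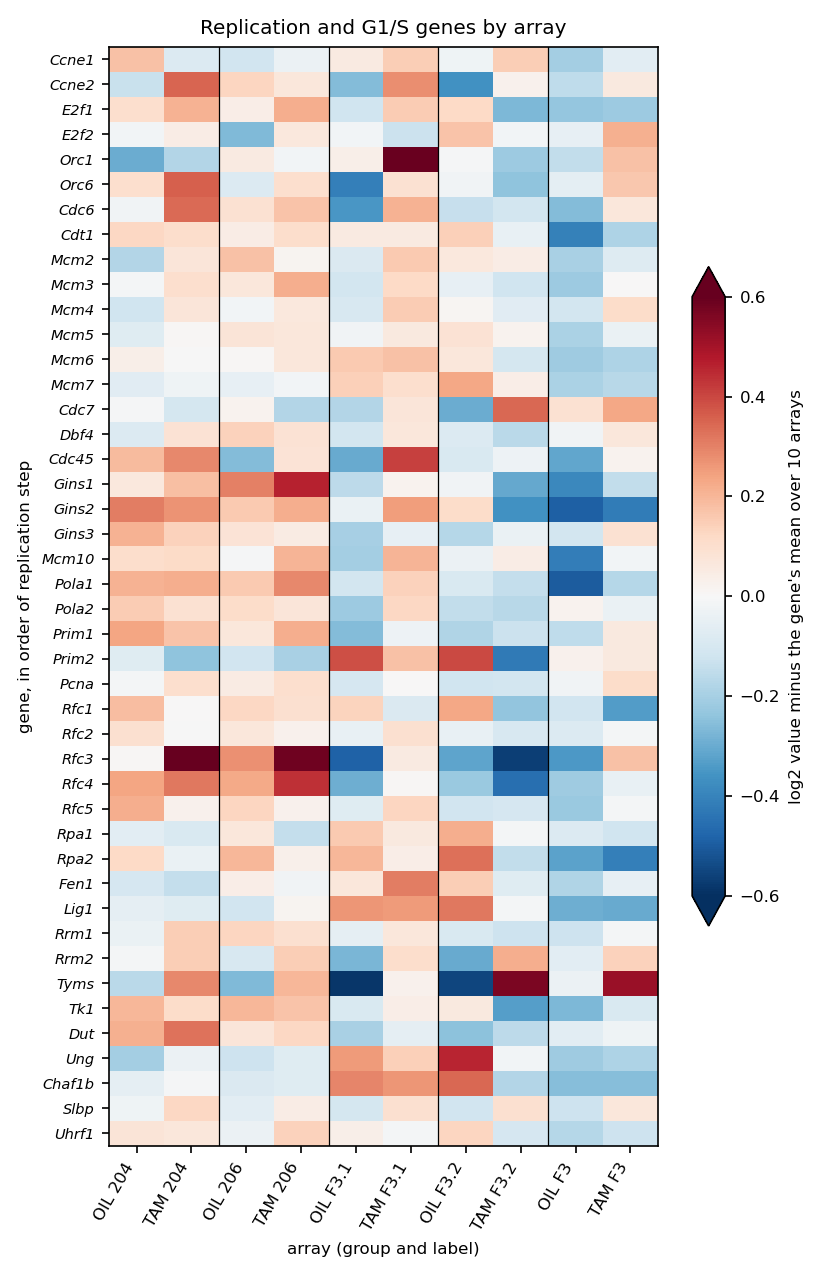
Deviation of each replication gene (rows, by step) from its mean over the 10 arrays, in log2 (colour), for the OIL and TAM arrays in label order (columns). The OIL F3 column holds the lowest value of 18 of the 44 genes and the TAM F3.2 column that of 8.

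Some markers of other cell types moved with the same label contrast. Granulocyte and macrophage markers, 12 of 13 with a probe set, had a summed level of 9.17 to 11.5 log2 in the F3 labels and 8.59 to 9.44 in 204 and 206. Of the 9 tested, 6 were called higher in the F3 labels, while Mpo, Cd14 and Itgam were below the brightness limit. Endothelial and stromal markers, all 9 with a probe set, summed to 8.76 to 11.5 in the F3 labels and 11.5 to 12.2 in 204 and 206. That sum was led by Pdgfrb, with a mean of 10.3, which read 6.77 on OIL F3 and 7.63 on TAM F3. Of the 5 tested, 2 were called lower in the F3 labels, Col1a2 (-3.11) and Pdgfrb (-1.89). Pecam1, Kdr and Lepr differed by -0.08, 0.07 and 0.07, and Cdh5, Col1a1, Cxcl12 and Pdgfra were below the limit. The T lineage markers summed to 15.0 to 15.2 in both, a sum led by the brightest of them. Of the 12 tested, 2 were called higher in the F3 labels by limma, Cd8a and Cd4, and 0 lower. Cd8a averaged 9.18 in 204 and 206 and 10.68 in the F3 labels (limma adjusted p 0.023), and Cd4 averaged 6.50 and 7.22 (limma adjusted p 0.0376). Any part of other cells, and of the Cd4 and Cd8a difference, in the label differences of the replication genes was not tested.

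Between OIL and TAM the summed ranges of the other cell types overlapped. Granulocyte and macrophage markers lay at 8.59 to 10.6 in OIL and 9.09 to 11.5 in TAM, and erythroid markers, 9 of 11 with a probe set, at 10.7 to 11.4 and 10.7 to 12.1, with Hba-a1, Slc4a1 and Car1 below the limit. The erythroid sum was led by Tfrc, with a mean of 10.9, while the next brightest, Klf1, averaged 5.65. Endothelial and stromal markers lay at 8.76 to 11.8 in OIL and 9.04 to 12.2 in TAM, a sum again led by Pdgfrb. B cell markers, 7 of 8, lay at 7.48 to 7.88 and 7.37 to 7.89, with Cd79a, Cd79b, Ms4a1 and Ebf1 below the limit. NK cell markers, 4 of 5, lay at 5.99 to 6.29 and 5.93 to 6.25, and megakaryocyte markers, 4 of 6, at 7.32 to 7.49 and 7.25 to 7.35. Fewer cells of a type and less RNA per cell cannot be told apart in these bulk samples.

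The genes around the replication machinery were read from further lists. Of 32 other replisome genes, 23 were higher in TAM, with a median difference of 0.06, and limma called none without the block and 1 with it, the origin recognition subunit Orc5, which fell by 0.35 (adjusted p 0.0271). With the block, 3.38% of all genes were called. At an unadjusted p under 0.05 the count without the block was 4, against 13.0% of all genes. Pold1 and Pole, the catalytic subunits of the lagging and leading strand polymerases, differed by 0.03 and -0.02. In the F3 labels 6 were called lower, against 10.5% of all genes, and 0 higher, among them Mcm8 (-0.49), Rpa3 (-0.43), Tipin (-0.37) and Timeless (-0.34).

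Of 26 tested G1/S regulators, 18 were higher in TAM, with a median of 0.10. None was called without the block by limma, and 8 had an unadjusted p under 0.05, against 13.0% of all genes. With the block 4 were called higher in TAM and 2 lower, against 3.38% of all genes in either direction. Cdkn1a, which encodes the kinase inhibitor p21, was higher by 1.78 (adjusted p 0.0511 without and 0.00356 with the block). Ccnd3, cyclin D3, was higher by 1.08 (adjusted p 0.0855 and 0.0131), Rb1, the retinoblastoma protein, by 0.42 (0.193 and 0.0249) and the repressor E2f8 by 0.30 (0.201 and 0.0452). Cdk6, a partner of the D cyclins, fell by 0.52 with the block (adjusted p 0.00872), and Tfdp2, a dimer partner of E2F, by 0.68 (adjusted p 0.0385). Cdk2, the partner of cyclin E, differed by 0.26 (limma adjusted p 0.27), Ccna2 by 0.09 and Gmnn, the inhibitor of Cdt1, by 0.06. Called in the F3 labels were 8 lower, against 10.5% of all genes, with Ccnd1 (-1.37), Cdkn1a (-0.55), Skp2 (-0.53) and Ccna2 (-0.33) farthest, and 2 higher, Ccnd2 (2.17) and Cdkn2d (0.34).

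Of 15 tested genes of nucleotide metabolism, 10 were higher in TAM, with a median of 0.01. Limma called none with or without the block. At an unadjusted p under 0.05 the count was 0 in either fit, against 13.0% of all genes without the block and 22.4% with it. The ribonucleotide reductase subunit Rrm2b differed by 0.01. Between label families 4 were called lower in the F3 labels, against 10.5% of all genes, and 2 higher. Dctd, which makes the dUMP that thymidylate synthase uses, averaged 6.70 in 204 and 206 and 3.97 in the F3 labels, below the brightness limit of 4.59, so no difference is given. Cad, Dtymk and Paics were lower, at -0.40, -0.28 and -0.27. Dck was higher by 0.33 and Samhd1 by 0.80.

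Of 12 S phase chromatin genes 7 were higher in TAM, with a median of 0.08, and of 15 fork repair and checkpoint genes 9 were, with a median of 0.02. Limma called none of either with or without the block. In the fit without it, 2 of each list had an unadjusted p under 0.05, against 13.0% of all genes. The maintenance methyltransferase Dnmt1 differed by 0.09. In the F3 labels, Rad18, Brca2, Exo1 and Rad51ap1 were lower, at -0.74, -0.67, -0.41 and -0.31, among 5 fork genes called lower, against 10.5% of all genes, and Supt16, a subunit of the histone chaperone FACT, was higher by 0.35.

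Of 22 tested G2/M genes 17 were higher in TAM, with a median difference of 0.09, and limma called none with or without the block, with 3 under an unadjusted p of 0.05 without it. Cdk1, the mitotic kinase, differed by 0.23 and Mki67, the proliferation marker, by 0.17. In the F3 labels 12 of the 22 were called lower, against 10.5% of all genes, and 0 higher, with a median of -0.30. Kif11, Cenpf, Ttk and Ube2c were lower, at -0.54, -0.51, -0.49 and -0.48, and Cdk1 was at -0.39 (limma adjusted p 0.02). Mki67 differed by -0.23 and was not called.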

How the data were processed

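The values are log2 expression, deposited by the authors after RMA, as the submitters' processing notes name it, with its version not given in the sources used here. This method subtracts background, brings all arrays to 1 distribution and combines the probes of a probe set, so shifts common to all genes are removed. The labels' protocols give 200 ng of total RNA per target and sorted leukemic cells that were over 50% of the marrow. Of 45101 probe sets, 34958 had 1 symbol in the platform annotation, 932 several and 9211 none; the last 2 kinds were not named.

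Here each of 18193 genes was read from its probe set with the highest mean, and the lowest 30% of genes (below 4.59 log2) were left out, as dim. Limma 3.58.1 (R 4.3.3, data.table version 1.17.8) compared TAM with OIL without a block (8 residual degrees of freedom), over 12735 genes with Benjamini-Hochberg adjustment, and was checked on simulated data. Further fits had the label as a block (4 degrees), tested labels, set F3, F3.1 and F3.2 against 204 and 206, and tested the interaction. The tests of labels and of label families used the residual error of the block fit, which is the spread within labels. The OIL and TAM arrays of a label shared deviations from the means of their groups, with correlations over genes of 0.763 (204), 0.745 (206), 0.585 (F3.1), 0.184 (F3.2) and 0.804 (F3). An array of another label correlated at up to 0.61, so the pairing, taken from the labels, is least certain for F3.1 and F3.2. In the expression values themselves, the highest correlation between arrays (0.997) joined OIL F3.2 to OIL F3.1. The labels do not say whether F3.1 and F3.2 are independent of each other.

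Every gene of the list is given a difference. Values of every array are given for genes called in any fit, for the 8 largest TAM minus OIL differences and for the 6 largest label spreads. Of the other lists, called genes are named, up to 4 per direction, with 13 chosen genes, of which 1 is not reported here. The genes, lists and tests were chosen with earlier results of these data known. Precision is limited by 5 arrays per group. Alternatives were other blocks, filters, scalings, probe set rules, weights and left-out arrays or labels.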

Additional observations from a re-analysis of the deposited data

Results flagged for a closer look

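Of the 88 sets of 5 values (44 genes in OIL and in TAM), 3 held an array that lay far from the other 4 by Dixon's limit; chance sets apart about 1 in 20 sets. Cdt1 read 11.31 on OIL F3, where the next lowest OIL array read 11.76. Dbf4 read 10.06 on TAM F3.2, where the next lowest TAM array read 10.29. Fen1 read 11.44 on TAM F3.1, where the next highest TAM array read 11.11.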

How the results depend on the processing

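Each alternative was run on some or all of the following results. These were the counts, the list's median, the 8 largest TAM minus OIL differences and the 7 called differences between label families. None of them changed direction in the alternatives run. The TAM minus OIL difference of Dut was not among them and had opposite signs in its probe sets (0.08 and -0.17). The count of list genes called between TAM and OIL, 0 without a block, was 1 with the replicate block as a fixed term. It was 3 with the block as a random term (Rrm2, Slbp and Tyms) and 2 with array weights (Rrm2 and Tyms). Of all genes, 0.471% were called without a block and 3.38% with the fixed block. That share was not counted with the random block or the weights, so these 2 counts have no background to be read against. The count of list genes was 0 without each array in turn, and the median TAM minus OIL difference then lay between 0.0447 and 0.103. With the replicate block the count of 1 became 0 with the mean of all probe sets, where 400 of all genes were called. It lay between 0 and 2 without each label, where 87 to 436 of all genes were called. The block as a fixed term changed no other call of the list. The count of 2 between labels was 1 without the filter on dim genes or with a further quantile normalization, 8 with the most variable probe set (18.4% of all genes called), and between 0 and 9 without each label. The count of 7 between label families was 11 when all probe sets of a gene were averaged (18.7% of all genes called) and 14 with the most variable one (22.3%), and between 0 and 9 without each label (4 without F3). Single genes were tallied in part of the alternatives only. The random block, the array weights and the block fits without each label were among those left out. Calls named for them above are not counted here. Of the values tallied, 192 kept their side of the threshold, 20 lost it and 1 passed it. The causes were not tested. The smallest differences are limited by 5 arrays per group.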

Other observations

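Across the 34 genes with a second bright probe set, 37 of the 47 other bright probe sets had the sign of the chosen one between TAM and OIL, and 34 of the 47 had it between label families. The G2/M genes differed from the replication genes in their promoter letters: 1 of their 20 promoters (5%) held an E2F word and 16 (80%) held CCAAT. These shares were not tested against each other. The median F3 difference was -0.10 log2 for the 13 replication genes with an E2F word and -0.13 for the 25 without.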
